A study of Mus musculus with 23 samples.

Results

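The 10 genes followed here are grouped as genes of progenitor and differentiating spermatogonia of the mouse testis. The rows of these 10 genes were taken by name from a table of raw read counts for 27466 genes. The 10 are Ndrg4, Pou5f1, Steap1, Neurog3, Nanos3, Sohlh1, Sohlh2, Kit, Rhox13 and Dmrtb1, and all 10 were in the table and passed the filter on low counts. Testes of wild-type CD-1 mice were sequenced in vivo at 6.5 and 10.5 days postpartum (dpp) and later at 22.5 dpp and 36.5 dpp, and so were 6.5 dpp testes cut into explants and cultured for 4, 16 or 30 days (D4, D16 and D30), so that D4 matches 10.5 dpp, D16 matches 22.5 dpp and D30 matches 36.5 dpp. Tissue was fresh (FT), except for some 6.5 dpp testes and 1 D30 culture, which had been thawed after controlled slow freezing (CSF). All explants were grown in α-MEM with KnockOut serum replacement, gentamicin and retinol, the precursor of retinoic acid. RNA came from whole testes or from pools of explants whose necrotic centre had been cut away, so each library mixes germ and somatic cells.

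In vivo there were 4 libraries of 6.5 dpp (1 FT, 3 CSF), 3 each of 10.5 and 22.5 dpp, and 2 of 36.5 dpp. In culture D4 had 3, D16 had 2 and D30 had 4 (3 FT, 1 CSF). They held between 28351546 and 69029328 counts on genes, and the lowest count of any of the 10 genes in a library was 7 (Neurog3 at 36.5 dpp). Among the columns of 6.5 dpp, FT replicate 3 repeats FT replicate 2 for every gene, and FT replicate 1 stands apart from the other libraries of its age. In FT replicate 1 all 10 genes lay outside the range of the other 6.5 dpp libraries, with Dmrtb1 above it and the other 9 below, and 8 of the 10 lay within the range of the D16 and D30 cultures. The 4 spermatocyte markers (Sycp1, Piwil1, Ccna1 and Hspa2) summed to 2128 CPM (counts scaled so that every library has the same total) in it, against 111 to 124 CPM in the other 6.5 dpp libraries. Both columns were left out, and with FT replicate 1 kept, 28 of the 52 calls of the 10 genes described below were lost (2 of 9 from 10.5 to 22.5 dpp, 4 of 6 at D30 against 36.5 dpp). The 6.5 dpp CSF replicate 3 also stands apart, with the lowest Kit (69.1 CPM) and the highest Nanos3 (24.7 CPM), Rhox13 (37.8 CPM) and Steap1 (6.56 CPM) of its age. The study counts 2 CSF samples at this age without saying which, and 3 are given here. All 3 were kept. Without CSF replicate 3, the 1 call among the 10 genes between 6.5 and 10.5 dpp (Pou5f1) was lost, and the 5 between 6.5 dpp and D4 were kept. The 5 germ cell markers, Ddx4 and Dazl among them, summed to at least 811 CPM in every library. In whole tissue, fewer cells of a type and less RNA per cell cannot be told apart.

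Spermatogonial stem cells give rise to progenitors, which divide as chains of connected cells and can still return to the stem cell state. Under retinoic acid the progenitors turn into differentiating spermatogonia, which make the receptor KIT, divide further and enter meiosis as spermatocytes. NEUROG3 marks progenitors, the paired transcription factors SOHLH1 and SOHLH2 drive differentiation, and DMRTB1 acts at the passage from mitosis to meiosis.

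Sequences before a transcription start are shown for 5 of the genes. Of these, 4 differed most between culture and testis (Rhox13, Dmrtb1, Neurog3 and Sohlh1), and Kit is the receptor that defines differentiating spermatogonia. SOHLH1, SOHLH2 and NEUROG3 are basic helix-loop-helix proteins, which bind E-boxes, and CANNTG is in capitals below. Each sequence is the 250 bases before a transcription start in RefSeq for GRCm38.p6, read 5′ to 3′ on the strand of the gene. Sohlh1 is at chr2:25847249-25847498 (minus strand), Kit at chr5:75574737-75574986 (plus), Neurog3 at chr10:62132840-62133089 (plus), Rhox13 at chrX:38120590-38120839 (plus) and Dmrtb1 at chr4:107684231-107684480 (minus). The Dmrtb1 window lies inside the annotated gene (chr4:107676288-107704011) and not next to its outer start.
Sohlh1: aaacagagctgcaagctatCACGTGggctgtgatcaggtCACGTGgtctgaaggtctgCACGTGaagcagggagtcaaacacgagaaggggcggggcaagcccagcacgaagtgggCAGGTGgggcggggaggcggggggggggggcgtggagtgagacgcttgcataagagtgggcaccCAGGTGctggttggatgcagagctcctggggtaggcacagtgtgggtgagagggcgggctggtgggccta
Kit: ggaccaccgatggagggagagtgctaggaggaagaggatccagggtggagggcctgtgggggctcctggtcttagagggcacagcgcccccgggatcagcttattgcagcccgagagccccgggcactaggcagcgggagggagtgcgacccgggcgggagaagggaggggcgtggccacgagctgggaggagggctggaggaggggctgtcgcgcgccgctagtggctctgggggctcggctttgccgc
Neurog3: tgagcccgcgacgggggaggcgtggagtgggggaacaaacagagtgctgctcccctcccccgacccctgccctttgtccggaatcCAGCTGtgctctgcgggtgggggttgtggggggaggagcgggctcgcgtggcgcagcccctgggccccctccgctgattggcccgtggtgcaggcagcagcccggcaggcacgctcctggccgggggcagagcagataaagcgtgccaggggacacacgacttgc
Rhox13: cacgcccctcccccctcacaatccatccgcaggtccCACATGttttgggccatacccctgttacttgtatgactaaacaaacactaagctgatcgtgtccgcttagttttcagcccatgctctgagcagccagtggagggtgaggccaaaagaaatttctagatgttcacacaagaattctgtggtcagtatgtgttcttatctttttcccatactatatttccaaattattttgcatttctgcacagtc
Dmrtb1: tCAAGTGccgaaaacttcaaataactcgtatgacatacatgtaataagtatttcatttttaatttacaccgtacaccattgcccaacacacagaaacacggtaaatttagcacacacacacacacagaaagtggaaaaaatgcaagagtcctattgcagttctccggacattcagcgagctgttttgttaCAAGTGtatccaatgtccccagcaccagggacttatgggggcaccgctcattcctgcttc
The Sohlh1 window held 5 matches to CANNTG, of which 3 were CACGTG, and of the 10 windows used, 1 for each gene, it alone held CACGTG. The Kit window held no match to CANNTG, and the other 9 genes held 1 or more. Over all 32851 promoter windows of this length, 66.2% held CANNTG and 6.02% held CACGTG, a special case of CANNTG, on either strand. The half-site of retinoic acid receptors, AGGTCA, was searched on both strands. It was found for 2 of the 10 genes (Pou5f1 and Sohlh1) and in 14% of all windows. Some genes had further windows that were not used, and 1 of Ndrg4 (chr8:95677513-95677762) held 1 CACGTG and 1 AGGTCA. A match is a string of letters in the window and not a measured site.

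**Figure D1:**
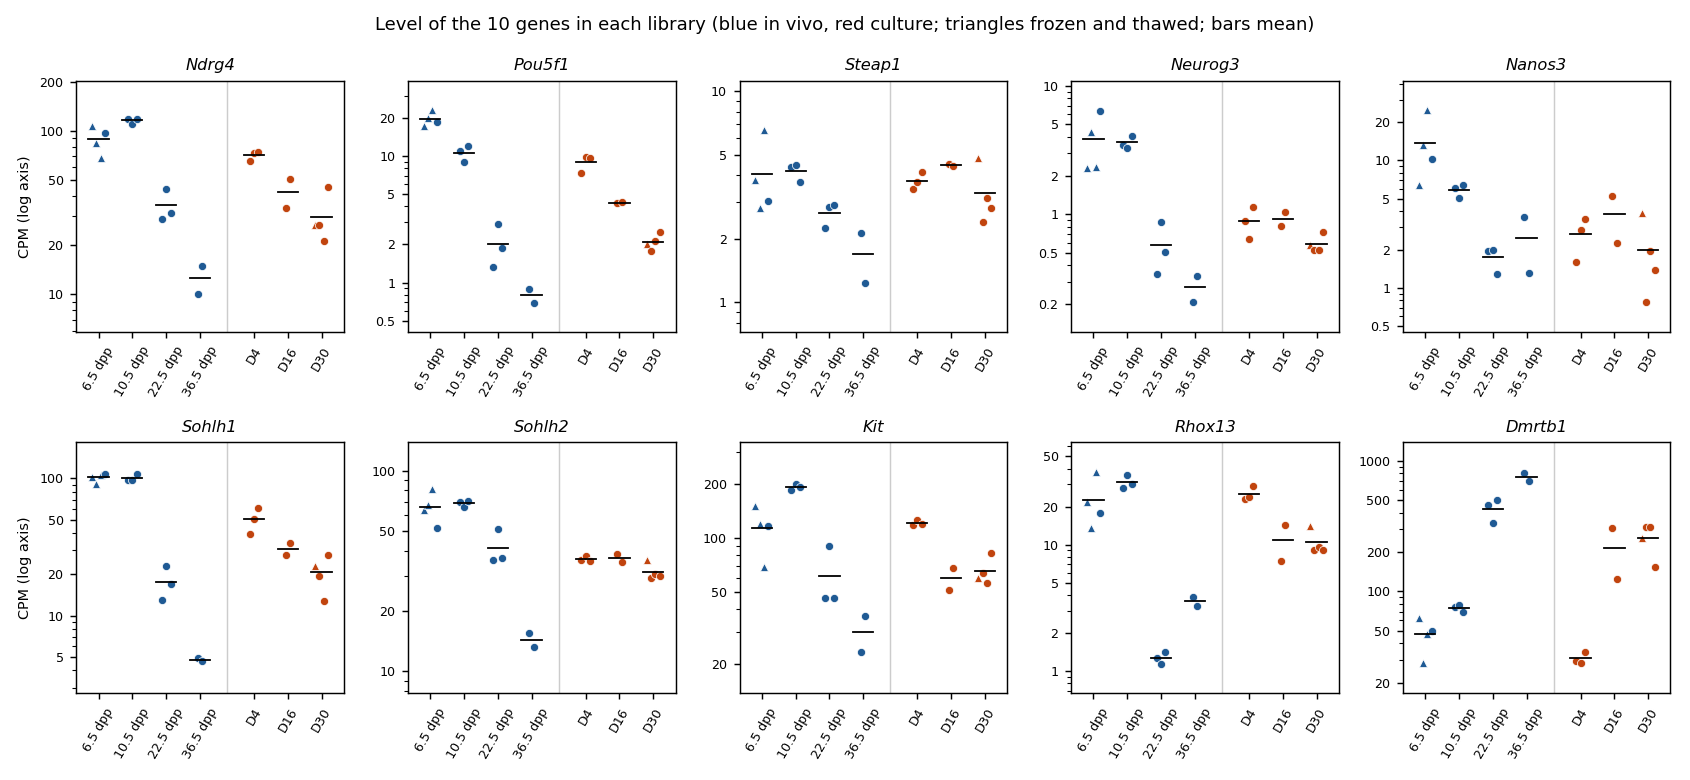
Level of each of the 10 genes in each library, in CPM on a log axis, by age in vivo (blue) and culture day (red), with triangles for frozen and thawed tissue and a bar for the mean of the stage. On average 8 of the 10 genes were highest at 6.5 or 10.5 dpp, whereas Dmrtb1 ran from 28.4 CPM at 6.5 dpp to 811 CPM at 36.5 dpp.

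The first comparisons ask how the 10 genes changed along the first wave in vivo. Between 6.5 and 10.5 dpp only Pou5f1 changed at an adjusted p under 0.05, which is what "called" means here. Between 10.5 and 22.5 dpp, when pachytene spermatocytes appear, 8 of the 10 genes fell and Dmrtb1 rose. The background was 27.9% of all 19255 genes tested called lower and 33.6% called higher. Between 22.5 and 36.5 dpp, 4 genes fell, against a background of 27.5%, and Rhox13 and Dmrtb1 rose, against 23.3%. The median log2 fold change of the 10 genes was -0.03, -1.45 and -0.52 in these 3 steps, and that of all genes was -0.01, 0.06 and -0.13.

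Among the progenitor genes, Pou5f1, which encodes the pluripotency factor OCT4, measured 18.5 CPM in the FT library of 6.5 dpp and 17.3, 20.2 and 23.1 CPM in the CSF libraries. It measured 10.9, 9.07 and 11.9 CPM at 10.5 dpp, 1.32, 2.92 and 1.87 CPM at 22.5 dpp, and 0.891 and 0.694 CPM at 36.5 dpp. The 4 ages did not overlap. The fall to 10.5 dpp was -0.97 ± 0.22 on the log2 scale (SE, adjusted p = 0.0349), and Pou5f1 was 1 of only 0.467% of genes called lower at that step. This call was lost without 1 of 5 of the 7 libraries (6.5 dpp CSF replicate 2 or 3, or any of 10.5 dpp; adjusted p from 0.0703 to 0.243), with only fresh libraries (0.971), in a fit of only these groups (0.137), with library size only (0.0787) and without the filter (0.0507). The next fall was 4.32-fold (log2 -2.11 ± 0.24, adjusted p = 8.87e-07). The last was 1.78-fold (log2 -0.83 ± 0.28, adjusted p = 0.0207), and was lost without 22.5 dpp replicate 2 or 36.5 dpp replicate 2 (adjusted p from 0.115 to 0.143), in a fit of only these groups (0.182), with RLE factors (0.0755) and with DESeq2 (0.0856).

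Neurog3, the progenitor transcription factor, had few counts. It measured 6.39 CPM in the FT library of 6.5 dpp and 2.31, 4.38 and 2.33 CPM in the CSF libraries, then 3.48, 3.28 and 4.09 CPM at 10.5 dpp. At 22.5 dpp it was at 0.343, 0.878 and 0.506 CPM, and at 36.5 dpp at 0.208 and 0.334 CPM. The 6.5 and 10.5 dpp libraries overlapped, and both lay above all later ones. The fall to 22.5 dpp was 5.15-fold (log2 -2.37 ± 0.38, adjusted p = 4.40e-05), and the step to 36.5 dpp was not called (log2 -0.55 ± 0.48, adjusted p = 0.356). Neurog3 shares 273 exon bases with Fam241b on the other strand, and the strand setting of the counting is not given in the sources used here. Pou5f1 likewise shares 317 exon bases with the antisense gene Gm19553, and its pseudogene Pou5f1-rs4 had 7 counts in all 21 libraries together against 7072 for Pou5f1.

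Nanos3, an RNA-binding protein that keeps germ cells alive, ranged widely among the 6.5 dpp libraries. Its levels were 10.3 CPM (FT) and 6.38, 13.2 and 24.7 CPM (CSF) at 6.5 dpp, 6.13, 5.09 and 6.40 CPM at 10.5 dpp, 1.95, 2.00 and 1.30 CPM at 22.5 dpp, and 3.62 and 1.31 CPM at 36.5 dpp. It fell 2.74-fold from 10.5 to 22.5 dpp (log2 -1.45 ± 0.57, adjusted p = 0.0334). That call was lost without any of 5 of the 6 libraries, all but 10.5 dpp replicate 2 (adjusted p from 0.0563 to 0.107). Ndrg4, a member of the NDRG family, was 84.6 to 108 CPM in 3 of the 6.5 dpp libraries and 68.2 CPM in CSF replicate 3. It was 119, 111 and 118 CPM at 10.5 dpp, 29.1, 44.3 and 31.7 CPM at 22.5 dpp, and 10.0 and 15.0 CPM at 36.5 dpp. Ndrg4 fell 2.73-fold (log2 -1.45 ± 0.23, adjusted p = 4.37e-05) and then 1.94-fold (log2 -0.96 ± 0.27, adjusted p = 0.00643, but 0.110 without 36.5 dpp replicate 1). Steap1, a membrane protein of the STEAP family, lay between 1.23 and 6.56 CPM in every library and was called in none of the 12 comparisons.

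The 2 helix-loop-helix partners, Sohlh1 and Sohlh2, both fell from 10.5 to 22.5 dpp. Sohlh1 was at 107 CPM (FT) and 102, 91.4 and 106 CPM (CSF) at 6.5 dpp, 97.4, 97.4 and 107 CPM at 10.5 dpp, 12.9, 23.0 and 17.1 CPM at 22.5 dpp, and 4.90 and 4.65 CPM at 36.5 dpp. Sohlh2 was at 51.6 CPM (FT) and 63.9, 67.7 and 81.3 CPM (CSF) at 6.5 dpp, 69.7, 66.2 and 70.6 CPM at 10.5 dpp, 35.9, 51.4 and 36.7 CPM at 22.5 dpp, and 15.6 and 13.3 CPM at 36.5 dpp. Both genes overlapped between 6.5 and 10.5 dpp, and no library of 22.5 dpp reached those of 10.5 dpp. Sohlh1 fell 4.69-fold (log2 -2.23 ± 0.23, adjusted p = 2.54e-07) and Sohlh2 1.37-fold (log2 -0.45 ± 0.17, adjusted p = 0.0322). The Sohlh2 call was lost without 5 of the 6 libraries, all but 22.5 dpp replicate 2 (adjusted p from 0.0535 to 0.105), with RLE factors (0.0708) and with DESeq2 (0.0561). From 22.5 to 36.5 dpp both fell, Sohlh1 2.57-fold (adjusted p = 0.000405) and Sohlh2 2.00-fold (adjusted p = 0.000644).

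Kit was lowest in CSF replicate 3 (69.1 CPM) among the 6.5 dpp libraries, the others being at 117 (FT), 151 and 120 CPM. It was at 185, 199.8 and 191 CPM at 10.5 dpp, above every other library of the series. The rise from 6.5 to 10.5 dpp was not called, with a log2 fold change of 0.70 ± 0.23 and an adjusted p of 0.169. At 22.5 dpp Kit was at 46.2, 90.8 and 46.3 CPM, a fall of 2.61-fold (log2 -1.38 ± 0.25, adjusted p = 0.000120). At 36.5 dpp it was at 23.3 and 36.6 CPM, a step that was not called (log2 -0.49 ± 0.28, adjusted p = 0.150). Spermatids are known to make a shortened KIT from an inner start site, and counts per gene do not separate it from the receptor.

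Rhox13, a homeobox gene on the X chromosome (chrX:38120840-38129966), had the largest fall of the 10 genes. It was at 17.9 CPM (FT) and 21.6, 13.6 and 37.8 CPM (CSF) at 6.5 dpp and at 28.2, 35.5 and 30.3 CPM at 10.5 dpp. It was then at 1.27, 1.14 and 1.42 CPM at 22.5 dpp, a fall of 20.0-fold (log2 -4.32 ± 0.38, adjusted p = 4.37e-08), before it rose 3.97-fold to 3.89 and 3.27 CPM at 36.5 dpp (log2 1.99 ± 0.38, adjusted p = 0.000444). The last 3 ages did not overlap, and the first overlapped 10.5 dpp. Spermatocytes are known to silence the X chromosome during meiosis, so the other 799 X-linked genes tested were set beside it, a comparison chosen after the values were seen. Their median log2 fold change from 10.5 to 22.5 dpp was -0.85. Of them 421 (52.7%) were called lower and 164 (20.5%) higher, beside 27.9% and 33.6% of all genes. Only 4 of the 799 fell further than Rhox13.

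Dmrtb1 was the only one of the 10 genes called higher from 10.5 to 22.5 dpp. It was at 49.5 CPM (FT) and 62.6, 28.4 and 47.4 CPM (CSF) at 6.5 dpp, 76.4, 79.1 and 69.8 CPM at 10.5 dpp, 454, 332 and 500.2 CPM at 22.5 dpp, and 811 and 698 CPM at 36.5 dpp. No 2 ages overlapped. It rose 7.08-fold from 10.5 to 22.5 dpp (log2 2.82 ± 0.36, adjusted p = 3.24e-06) and 2.47-fold to 36.5 dpp (log2 1.31 ± 0.37, adjusted p = 0.00711, but 0.131 with 6.5 dpp FT replicate 1 kept in the fit). Per kilobase of exon, Dmrtb1 averaged 40.4 CPM at 10.5 dpp, close to Kit (36.6), Rhox13 (35.8) and Ndrg4 (34.1) and below Sohlh1 (78.0). At 36.5 dpp it averaged 405 CPM per kilobase, and the other 9 genes averaged between 0.176 (Neurog3) and 6.10 (Sohlh2). Over the 21 libraries Dmrtb1 ran against the other 9 genes, with Pearson's r of log2 CPM from -0.31 (Steap1) to -0.90 (Pou5f1). Whether its late level comes from spermatogonia or from later germ cells was not tested.

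**Figure D2:**
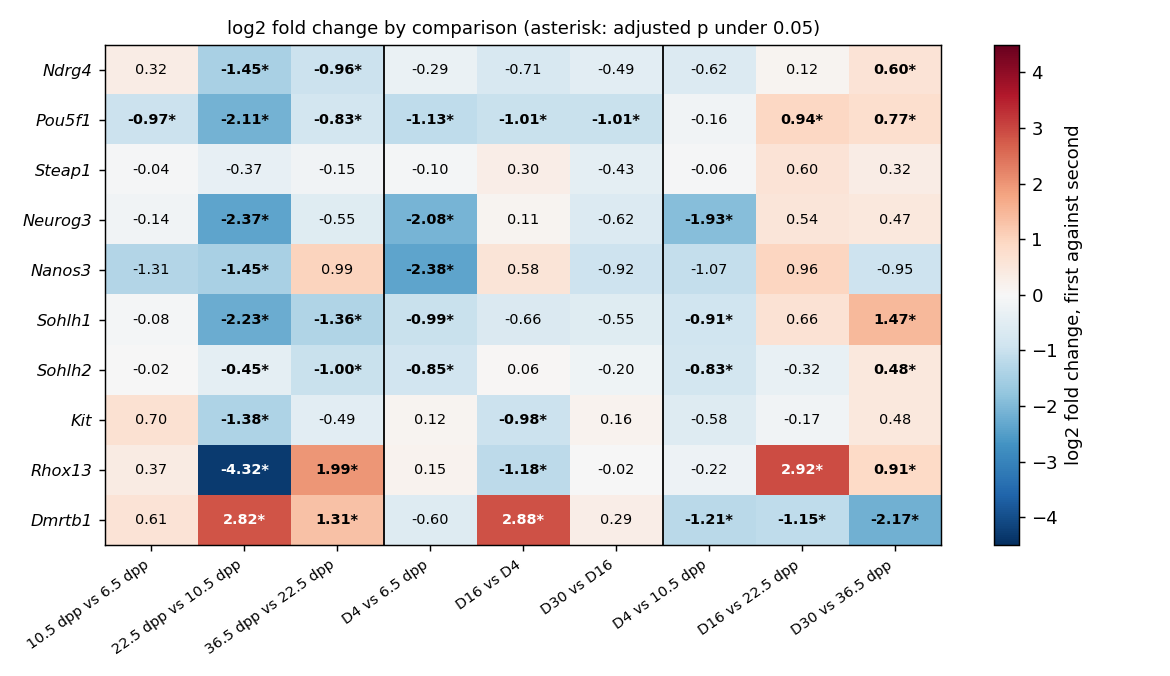
Log2 fold change of each gene (rows) in 9 comparisons (columns), in vivo steps on the left, culture steps in the middle and culture against the matched age on the right. Asterisks mark an adjusted p under 0.05. The step from 10.5 to 22.5 dpp holds 9 called genes and that from D16 to D30 holds 1.

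The next comparisons ask what the same genes did in explants. From 6.5 dpp to D4, 5 of the 10 genes fell, against a background of 10.1% called lower. They were Neurog3, Nanos3, Pou5f1, Sohlh1 and Sohlh2. No library of D4 reached the lowest one of 6.5 dpp for any of the 5. From D4 to D16, 3 genes fell (Pou5f1, Kit and Rhox13, background 5.48%) and Dmrtb1 rose (background 18.4%). From D16 to D30 only Pou5f1 was called, as lower, against a background of 0.332%. The median log2 fold changes of the 10 genes were -0.72, -0.30 and -0.46, and those of all genes lay between -0.03 and 0.03.

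Neurog3 was at 0.882, 0.647 and 1.13 CPM at D4, 4.21-fold below 6.5 dpp (log2 -2.08 ± 0.36, adjusted p = 0.000435). It then stayed within 0.804 to 1.05 CPM at D16 and 0.531 to 0.730 CPM at D30, and neither step was called (adjusted p 0.889 and 0.646). Nanos3 was at 1.60, 2.85 and 3.45 CPM at D4, 5.22-fold below 6.5 dpp (log2 -2.38 ± 0.55, adjusted p = 0.00497). Its later libraries lay between 0.773 and 5.30 CPM. Pou5f1 fell at each step. It was at 7.38, 9.78 and 9.73 CPM at D4, 4.22 and 4.37 CPM at D16, and 1.76, 2.13 and 2.49 CPM (FT) and 2.03 CPM (CSF) at D30. The falls were 2.18-fold (adjusted p = 0.00121), 2.01-fold (adjusted p = 0.00819) and 2.01-fold (adjusted p = 0.0387). The second fall was lost without D16 replicate 1 (adjusted p = 0.0915). The last was lost without any of 5 of the 6 libraries, all but D30 FT replicate 3 (adjusted p from 0.0738 to 0.250), with only fresh libraries (0.0769) and in a fit of only these groups (0.385).

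Sohlh1 was at 39.3, 50.9 and 61.0 CPM at D4, 1.99-fold below 6.5 dpp (log2 -0.99 ± 0.21, adjusted p = 0.00238), and Sohlh2 at 36.0, 37.4 and 35.6 CPM, 1.80-fold below it (log2 -0.85 ± 0.17, adjusted p = 0.00135). Sohlh2 was then at 38.4 and 34.9 CPM at D16 and 29.1 to 35.8 CPM at D30, with neither step called (adjusted p 0.854 and 0.818). Sohlh1 measured 27.8 and 33.7 CPM at D16 and from 12.7 to 27.5 CPM at D30, neither step being called (adjusted p 0.0632 and 0.309). With only the 1 fresh library at 6.5 dpp, 4 of the 5 calls at D4 were lost and Neurog3 was kept (adjusted p 0.0670 for Nanos3 to 0.203 for Sohlh2). All 5 were kept when any 1 library was left out, CSF replicate 3 included.

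Kit was at 118, 126 and 119 CPM at D4, within the range of 6.5 dpp. It fell 1.97-fold to 51.3 and 67.6 CPM at D16 (log2 -0.98 ± 0.28, adjusted p = 0.0156, but 0.237 without D16 replicate 1), and at D30 was at 63.7, 55.9 and 82.1 CPM (FT) and 59.8 CPM (CSF). Rhox13 was at 23.1, 23.8 and 29.2 CPM at D4 and at 7.39 and 14.3 CPM at D16, a fall of 2.26-fold (log2 -1.18 ± 0.38, adjusted p = 0.0304). That call was lost without D16 replicate 1, D4 replicate 2 or D4 replicate 3 (adjusted p from 0.0527 to 0.426). At D30 Rhox13 was at 9.15, 9.55 and 9.14 CPM in the FT libraries and 14.1 CPM in the CSF library. Dmrtb1 rose 7.35-fold from 29.3, 28.3 and 34.4 CPM at D4 to 307 and 124 CPM at D16 (log2 2.88 ± 0.38, adjusted p = 1.45e-05). It was at 309, 311 and 155 CPM (FT) and 256 CPM (CSF) at D30. D30 FT replicate 3, the lowest for Dmrtb1, was the highest at D30 for Ndrg4 (45.3 CPM), Pou5f1, Neurog3, Sohlh1 and Kit. Without that library 1 gene was called from D16 to D30, as with it.

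Against the testis of the same age, all 10 genes had a negative log2 fold change at D4, 7 had a positive one at D16 and 8 at D30. At D4, 4 genes were lower than at 10.5 dpp (Neurog3, Sohlh1, Sohlh2 and Dmrtb1), against a background of 3.18%. At D16, Pou5f1 and Rhox13 were higher than at 22.5 dpp (background 14%) and Dmrtb1 was lower (background 11.8%). At D30, 5 genes were higher than at 36.5 dpp (Ndrg4, Pou5f1, Sohlh1, Sohlh2 and Rhox13), with 32.4% of all genes called higher, and Dmrtb1 was lower, with 35% called lower. The median log2 fold changes of the 10 genes were -0.72, 0.57 and 0.48, and those of all genes were -0.01, -0.08 and -0.03. Each in vivo age enters both its own step and the culture comparison, so the 2 sets of values share libraries.

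**Figure D3:**
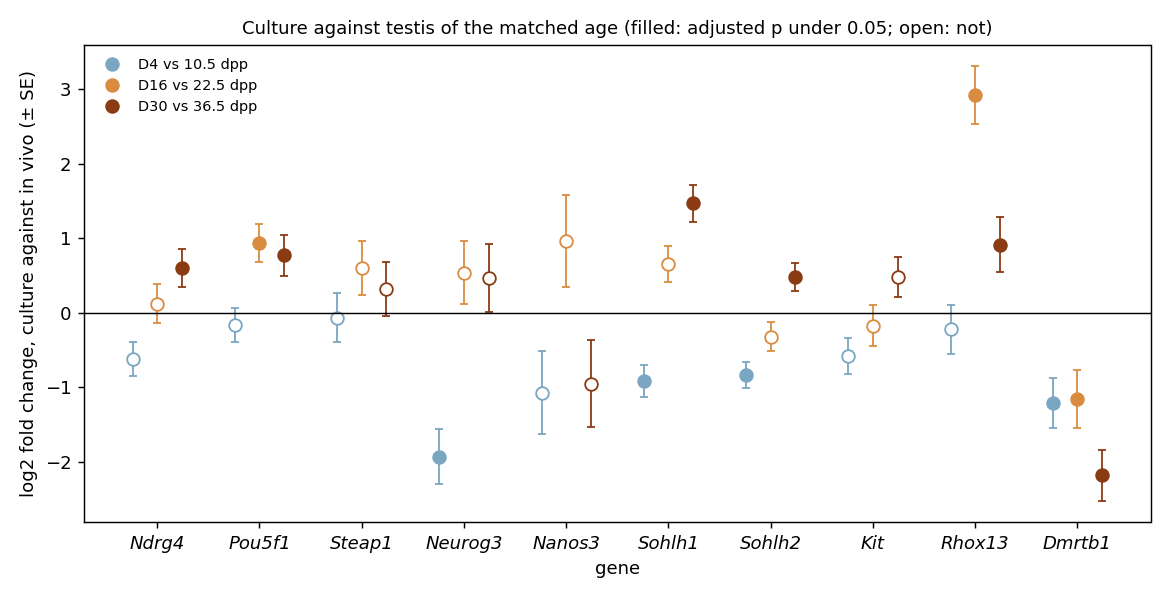
Log2 fold change of culture against the testis of the matched age for each gene, with its SE, at D4, D16 and D30. Filled points have an adjusted p under 0.05. All 10 points of D4 lie below 0, and at D30 only Nanos3 and Dmrtb1 do.

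At D4 the largest difference was that of Neurog3, 3.81-fold lower than at 10.5 dpp (log2 -1.93 ± 0.37, adjusted p = 0.00247), a call kept when any 1 library was left out. Sohlh2 was 1.78-fold lower (log2 -0.83 ± 0.18, adjusted p = 0.00533) and likewise kept. Sohlh1 was 1.88-fold lower (log2 -0.91 ± 0.22, adjusted p = 0.0133), and lost without 10.5 dpp replicate 3, D4 replicate 1 or D4 replicate 2 (adjusted p from 0.0506 to 0.0910). Dmrtb1 was 2.31-fold lower (log2 -1.21 ± 0.34, adjusted p = 0.0347) and lost without any 1 of the 6 libraries (adjusted p from 0.0757 to 0.127). Kit was at 118 to 126 CPM at D4 and 185 to 199.8 CPM at 10.5 dpp, with no overlap, but was not called (log2 -0.58 ± 0.24, adjusted p = 0.186). In a fit of these 2 groups alone, 7 of the 10 genes were called instead of 4, all of them lower. That fit called 3163 of 16288 genes lower, against 612 of 19255 in the main fit.

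At D16 the largest difference was that of Rhox13, 7.57-fold higher than at 22.5 dpp (log2 2.92 ± 0.38, adjusted p = 5.89e-05) and kept under every alternative and without any 1 library. Among the other 799 X-linked genes the median was 0.50, and 792 lay below Rhox13. Of the 799, 199 (24.9%) were called higher and 17 (2.13%) lower, beside 14% and 11.8% of all genes. Pou5f1 was 1.92-fold higher (log2 0.94 ± 0.26, adjusted p = 0.0149), and Dmrtb1 2.22-fold lower (log2 -1.15 ± 0.39, adjusted p = 0.0377). Both calls were lost without 22.5 dpp replicate 1, 22.5 dpp replicate 3 or D16 replicate 2 (adjusted p from 0.0521 to 0.103 for Pou5f1 and from 0.102 to 0.397 for Dmrtb1), and in a fit of only these groups (0.123 and 0.134), and that of Dmrtb1 also with library size only (0.0523). Sohlh1 did not overlap between the groups and was not called (log2 0.66 ± 0.24, adjusted p = 0.0527). Kit, Ndrg4, Neurog3 and Sohlh2 overlapped between D16 and 22.5 dpp.

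At D30, Dmrtb1 was 4.51-fold lower than at 36.5 dpp (log2 -2.17 ± 0.34, adjusted p = 3.30e-05) and Sohlh1 2.76-fold higher (log2 1.47 ± 0.25, adjusted p = 7.88e-05). Both were kept without any 1 library, and they were the only 2 of the 10 called with DESeq2 or with RLE factors. The other 4 were between 1.40-fold (Sohlh2) and 1.88-fold (Rhox13) higher, with adjusted p from 0.0182 (Pou5f1) to 0.0437 (Ndrg4), and each was lost without some library. For Ndrg4 these were 36.5 dpp replicate 1 and D30 FT replicate 3 (adjusted p from 0.154 to 0.399). For Pou5f1 it was 36.5 dpp replicate 2 (adjusted p = 0.156). For Sohlh2 and Rhox13 they were 36.5 dpp replicate 1 or 2 and D30 CSF replicate 1 (adjusted p from 0.0602 to 0.202). The log2 fold change of Rhox13 was 0.91, below the median of 1.23 of the other 799 X-linked genes, of which 345 lay below Rhox13. Of these 799, 429 (53.7%) were called higher and 186 (23.3%) lower, beside 32.4% and 35% of all genes. The 4 spermatid markers (Prm1, Prm2, Tnp1 and Acrv1) took 13875 to 17388 CPM of the 36.5 dpp libraries and 267 to 1312 CPM at D30. The median of all genes at D30 against 36.5 dpp was -0.03 with TMM factors, 0.60 with library size only and -0.29 with DESeq2. No called difference of the 10 genes changed its sign under any of them. With library size only, 7 of the 10 genes were called higher and 1 lower, beside 8833 of all 19255 genes called higher and 4586 lower. Of all genes called, 65.8% were higher against 48.0% with TMM factors.

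Averaged over the 3 stages, Rhox13 was 2.30-fold higher in culture (log2 1.20 ± 0.21, adjusted p = 0.000123), Pou5f1 1.43-fold higher (adjusted p = 0.00594) and Sohlh1 1.32-fold higher (adjusted p = 0.0169, but 0.0521 without D16 replicate 2, 0.0899 with RLE factors and 0.0833 with DESeq2). The average of Sohlh1 joins a called lower level at D4 (log2 -0.91) and a called higher one at D30 (log2 1.47). Dmrtb1 was 2.85-fold lower (log2 -1.51 ± 0.21, adjusted p = 1.40e-05). These 3 and 1 of the 10 genes stand beside 28.5% of all genes called higher and 27.2% called lower.

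Whether the difference between culture and testis itself changed with the stage was tested as a difference of contrasts. From D4 to D16 it moved up for 3 genes, with a background of 5.26% called higher, and from D4 to D30 for 6, with a background of 25.8%. Rhox13 moved most to D16 (log2 3.14 ± 0.50, adjusted p = 0.00118), followed by Neurog3 (2.47 ± 0.56, adjusted p = 0.0116, but 0.0689 without D16 replicate 2) and Sohlh1 (1.57 ± 0.33, adjusted p = 0.00705). The value for Rhox13 is also the difference between its fall of 20.0-fold in vivo and of 2.26-fold in culture over the matched step. To D30, Neurog3 (2.40 ± 0.59, adjusted p = 0.00327), Sohlh1 (2.38 ± 0.33, adjusted p = 4.16e-05) and Sohlh2 (1.31 ± 0.26, adjusted p = 0.000652) moved up and kept their calls without any 1 library. Ndrg4 (1.21 ± 0.34), Kit (1.06 ± 0.36) and Pou5f1 (0.93 ± 0.35) also moved up. The first 2 of these were lost without 36.5 dpp replicate 1 (adjusted p 0.0675 and 0.155). Pou5f1 was lost without any of 7 of the 12 libraries (10.5 dpp replicate 1 or 3, both of 36.5 dpp, D4 replicate 1, and D30 FT replicate 2 or 3, adjusted p from 0.0542 to 0.166), with RLE factors (0.118) and with DESeq2 (0.116), and Kit with RLE factors (0.0575). For Dmrtb1 neither difference was called (log2 0.05 ± 0.50 and -0.97 ± 0.48).

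Ratios of counts within a library do not depend on how libraries are scaled, and are given as a description, chosen after the values were seen. For every 100 counts of Kit there were 15.2 to 17.8 of Rhox13 at 10.5 dpp, 1.26 to 3.07 at 22.5 dpp and 8.92 to 16.7 at 36.5 dpp. In culture the same ratio was 18.9 to 24.5 on D4, 14.4 to 21.2 on D16 and 11.1 to 23.6 on D30, and no D16 library came near the values of 22.5 dpp. For every 100 counts of Sohlh1 there were 66.0 to 71.6 of Sohlh2 at 10.5 dpp, 215 to 278 at 22.5 dpp and 285 to 318 at 36.5 dpp. In culture there were 58.4 to 91.7 on D4, 104 to 138 on D16, and 109 to 239.6 on D30, the highest being FT replicate 2. The counts of Neurog3 for every 100 of Sohlh1 were 2.20 to 5.95 at 6.5 dpp, 3.37 to 3.83 at 10.5 dpp and 1.27 to 2.25 at D4. The D4 libraries overlapped those of 6.5 dpp and not those of 10.5 dpp. The ratio of Pou5f1 to Sohlh1 was 17.0 to 22.1 for every 100 at 6.5 dpp, 9.31 to 11.2 at 10.5 dpp and 15.95 to 19.2 at D4.

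**Figure D4:**
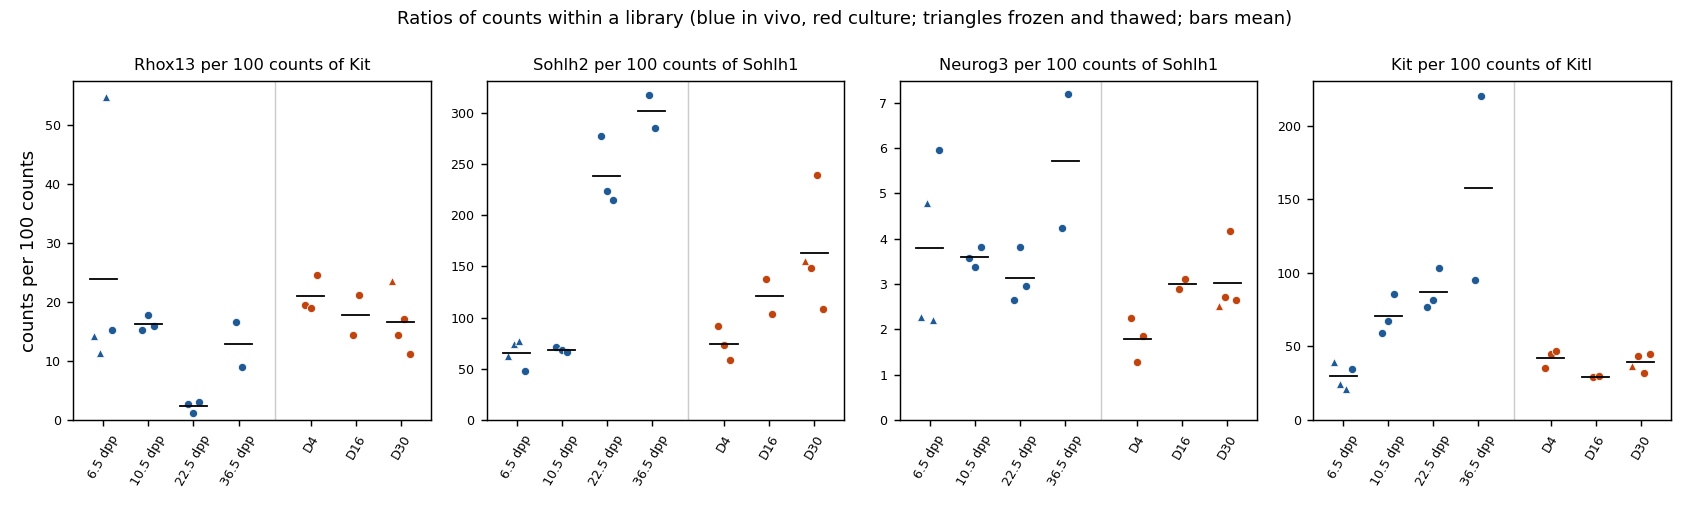
Counts of a gene for every 100 counts of another in the same library, by age in vivo (blue) and culture day (red), with triangles for frozen and thawed tissue and a bar for the mean. Rhox13 for every 100 of Kit lies below 3.1 in all 3 libraries of 22.5 dpp and at 8.9 or above in all others.

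KIT is bound by stem cell factor, the product of Kitl in Sertoli cells. For every 100 counts of Kitl there were 21.2 to 39.5 of Kit at 6.5 dpp and 59.2 to 85.3 at 10.5 dpp, followed by 77.1 to 103 at 22.5 dpp and, in the last age, 95.2 to 220.3. In culture the ratio was 35.1 to 46.8 on D4, 28.9 to 30.2 on D16 and 32.2 to 45.0 on D30, below the testis of the matched age in every library. Kitl itself was higher at D16 than at 22.5 dpp by a log2 fold change of 1.35 and at D30 than at 36.5 dpp by 2.38, and both were called. Kit itself was not called against the matched age at D4, D16 or D30 (log2 -0.58, -0.17 and 0.48). The ratio joins genes of different cells, and the part that the mix of cells has in it was not tested.

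Other genes of the same cells and of the retinoid pathway were described from lists written with earlier results of these data known. The first list also holds Kitl, a gene of Sertoli cells, and counts it with the rest. Of 8 other progenitor and differentiation genes (Sox3, Lin28a, Upp1, Sall4, Ccnd2, Dnmt3a, Dnmt3b and Kitl), all 8 fell from 10.5 to 22.5 dpp (27.9% of all genes), with a median log2 fold change of -1.82. Against the matched age, 1 was lower at D4, Sox3 (log2 -1.40), 3 were higher at D16 and all 8 at D30, with a median of 1.89. Of all genes tested, 4.92% were called higher and 3.18% lower at D4, 14% and 11.8% at D16, and 32.4% and 35% at D30, and the counts of the other lists stand beside the same shares. Sox3, which like Neurog3 marks progenitors, averaged 32.4 CPM at 10.5 dpp and 11.6 CPM at D4. Of 15 stem cell genes, 2 were higher at D4 (Etv5, log2 0.89, and Id4, log2 1.26) and none lower, with a further 1 higher and 3 lower at an unadjusted p under 0.05. At D16, 5 were higher, among them Gfra1, the receptor of GDNF (log2 1.40), and at D30, 8 were higher and 1 lower. Their medians were 0.13, 0.92 and 1.38.

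Of 22 retinoid genes, 4 were higher and 3 lower at D4 than at 10.5 dpp, 5 higher and 3 lower at D16, and 9 higher and 7 lower at D30, with medians of 0.10, -0.20 and 0.50. At D30 these are 40.9% higher and 31.8% lower, beside 32.4% and 35% of all genes. Aldh1a3, which makes retinoic acid, was called higher at each stage (log2 0.87, 1.16 and 2.54). Cyp26b1, which breaks retinoic acid down, averaged 383 CPM at 10.5 dpp and 141 CPM at D4 (log2 -1.36, called). The receptor Rara had a log2 fold change of 0.02 at D4 and was called higher at D16 (log2 1.01) and D30 (1.72). Of 10 meiotic entry genes, the direct retinoic acid target Stra8 was not called at D4 (log2 0.27) or D16 (0.48) and was higher at D30 (2.02). Prdm9 (0.78) and Spo11 (1.45) were called higher at D4 than at 10.5 dpp. At D16, 2 of the 10 were lower.

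**Figure D5:**
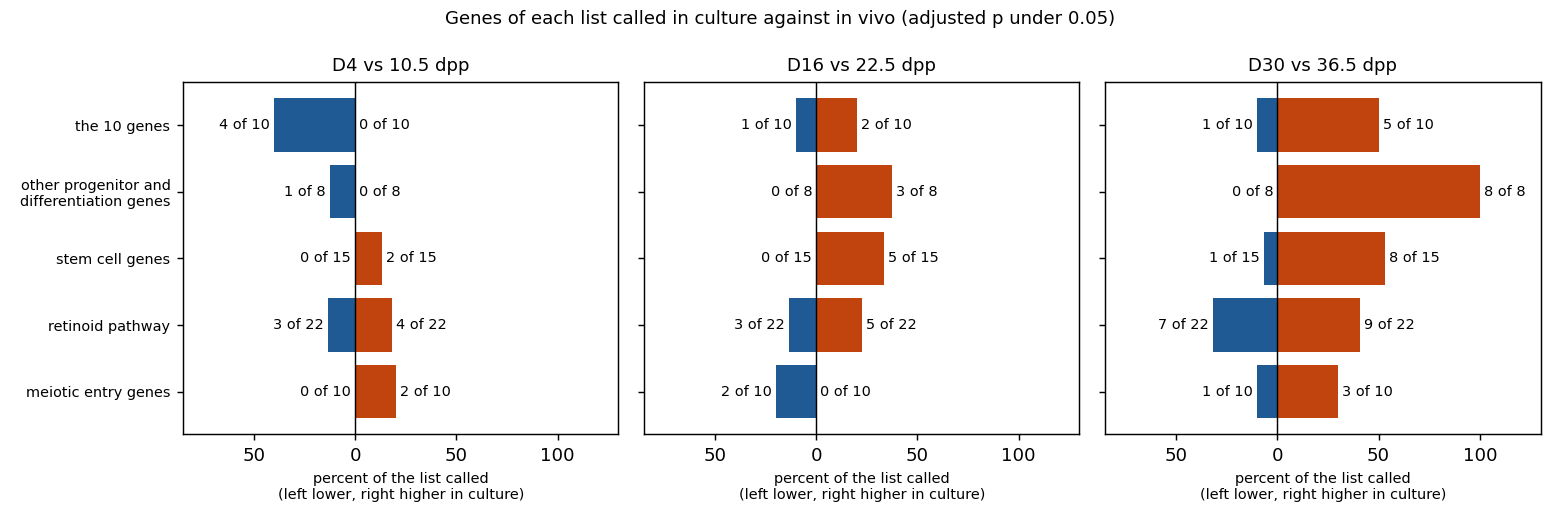
Percent of each gene list called lower (left) or higher (right) in culture than in the testis of the matched age, with the number of genes, at an adjusted p under 0.05. The 10 genes have 4 called lower at D4. At D30 the 8 other progenitor and differentiation genes, which include Kitl of Sertoli cells, are all called higher.

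Markers of germ cells and of other cells moved with these comparisons, and their part in the results was not tested. The 5 germ cell markers summed to 961 to 1169 CPM at D4 against 1174 to 1407 CPM at 10.5 dpp, with 0 of the 5 called. They summed to 1266 to 1632 CPM at D16 against 1820 to 2284 CPM at 22.5 dpp. At D30 the sums were 812 to 1470 CPM against 1060 to 1144 CPM at 36.5 dpp. Of the 5, 3 were called lower at D16 and 2 at D30, beside 11.8% and 35% of all genes. The 4 spermatocyte markers summed to 160 to 197 CPM at 10.5 dpp, 2974 to 3687 CPM at 22.5 dpp and 1748 to 2510 CPM at 36.5 dpp, and to 239 to 287 CPM at D4, 1176 to 1768 CPM at D16 and 710 to 1634 CPM at D30. At D16, 3 of the 4 were lower than at 22.5 dpp. The 7 Sertoli cell markers went the other way, with sums of 374 to 659 CPM at 22.5 dpp and 134 to 157 CPM at 36.5 dpp against 1113 to 1758 CPM at D16 and 1096 to 1950 CPM at D30, and 6 of the 7 were called higher in culture at both stages, with the remaining 1 lower at D16, beside 14% and 32.4% of all genes called higher. The 6 peritubular and vessel markers summed to 556 to 828 CPM at 22.5 dpp and 1242 to 1478 CPM at D16, and to 147 to 245 CPM at 36.5 dpp and 1074 to 1629 CPM at D30. At D4 and 10.5 dpp the Sertoli sums were 1943 to 2213 and 1809 to 1917 CPM, with 0 of the 7 called by edgeR with TMM factors (2 higher and 1 lower at an unadjusted p under 0.05), and the peritubular sums 1543 to 2018 and 1755 to 1897 CPM. The Leydig cell markers had 3, 5 and 6 of 6 called lower in culture at D4, D16 and D30 (312 to 537 CPM at D4 against 1015 to 1171 CPM), beside 3.18%, 11.8% and 35% of all genes. Macrophage markers summed to 10.2 to 12.8 CPM at D4 against 43.6 to 57.1 CPM at 10.5 dpp and to at most 109 CPM elsewhere, and mast cell markers to at most 86.1 CPM, nearly all of it Hdc (at most 86.0 CPM), while Cpa3, Mcpt4 and Fcer1a stayed at or below 1.16 CPM in every library.

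For each gene the 2 most alike among all genes were sought by Pearson's r of log2 CPM over the 21 libraries, which share stages and depth, so no p is given. Sohlh1 was most like Cdca7 (r = 0.99) and H1f0 (0.99), Ndrg4 like Usp13 and Rasd2 (0.98 each), Pou5f1 like Tspyl3 and Dpt (0.98 each), and Dmrtb1 like Prss56 and Aqp11 (0.98 each). Kit was most like Tnxb and Rnf31 (0.96 each), Neurog3 like Plppr1 and Tril (0.94 each), Nanos3 like Srfbp1 (0.94) and Armcx6 (0.93), Sohlh2 like Pnldc1 and Exog (0.94 each), and Rhox13 like Carhsp1 (0.93) and Actb (0.92). Steap1 had the lowest likeness, to Ccndbp1 (0.86) and Chchd2 (0.85). None of these was one of the 10.

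Freezing could only be described, with 1 fresh library at 6.5 dpp and 1 frozen one at D30. At 6.5 dpp the fresh library lay within the range of the 3 CSF libraries for 7 of the 10 genes, above it for Neurog3 and Sohlh1 and below it for Sohlh2. At D30 the CSF library lay within the range of the 3 fresh ones for 6 genes and above it for Steap1, Nanos3, Sohlh2 and Rhox13.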

How the data were processed

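RNA of testes and explants was sequenced from poly(A) libraries of a stranded kit. The authors deposited raw counts, 1 whole number for each gene and library. Their reads had been aligned by STAR 2.7.3a to the GRCm38 genome and assigned to genes by HTSeq 0.12.4, versions that come from the submitters' processing notes. The strand setting is not given in the sources used here. Of the 23 columns, 1 that repeats another and 6.5 dpp FT replicate 1 were left out, and 21 libraries were analysed. Groups and replicates came from the sample labels. The submitters call the samples biological replicates, and which animals each one holds is not given in the sources used here. The p-values measure the spread between these samples.

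CPM were taken over the total of a library. Tests ran in R 4.3.3 with edgeR 4.0.16: TMM factors, filterByExpr, the quasi-likelihood test and the Benjamini-Hochberg method, applied across 19255 genes in 1 fit with 7 stages and CSF pooled with fresh. Calls are at an adjusted p under 0.05 from edgeR unless DESeq2 1.42.0 is named. Levels with 7 counts or more were above the floor of 3 counts, which covers counting error only. Exon lengths were from GENCODE vM21 and promoter sequences from RefSeq (all 10 genes matched). The window of Dmrtb1 was the more upstream of 2 and lies inside the annotated gene. That of the other genes was the one next to the annotated start. The steps were tested on simulated data. Plots used matplotlib 3.10.9.

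The genes, lists and tests were chosen with earlier results of these data known. All 10 genes, any gene of the 4 pathway lists and the 2 genes most like each were named by a fixed rule. Alternatives changed the normalization, filter, thresholds, tool and libraries, and added the replicate number as a block.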

Additional observations from a re-analysis of the deposited data

Results flagged for a closer look

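At D30, Rhox13 in the CSF library (14.1 CPM) lay far above the 3 fresh ones (9.14 to 9.55 CPM). Of 20 groups of 4 libraries tested in this way 1 was singled out, and chance gives about 1 in 20.

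The difference between culture and testis was not the same at D16 as at D4 for Neurog3 (log2 2.47 higher at D16), Sohlh1 (1.57) and Rhox13 (3.14). It was not the same at D30 as at D4 for Ndrg4 (log2 1.21 higher at D30), Pou5f1 (0.93), Neurog3 (2.40), Sohlh1 (2.38), Sohlh2 (1.31) and Kit (1.06). Each of these passed the edgeR test of the difference of contrasts at an adjusted p under 0.05, with 2 to 4 libraries in each group.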

How the results depend on the processing

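Of 52 calls of the 10 genes, 22 were kept under every alternative except the stricter thresholds and with any 1 library left out, 22 were lost with at least 1 library left out, and none of the 52 changed its sign. Values of the opposite sign arose 58 times, none of them called in either fit. With 6.5 dpp FT replicate 1 kept, 28 calls were lost, and the number of genes called was 0 for 10.5 against 6.5 dpp, 1 for D4 against 6.5 dpp, 1 for D16 against D4, 0 for D30 against D16, 1 for D4 against 10.5 dpp, 1 for D16 against 22.5 dpp, 2 for D30 against 36.5 dpp, 2 for the averaged difference and 1 for its change from D4 to D16. For its volcano plots the study set a log2 fold change of at least 2 and an adjusted p of at most 0.001, with looser limits elsewhere. With these thresholds of the study 5 genes were called from 10.5 to 22.5 dpp, 1 each for D4 against 6.5 dpp, D16 against D4, D16 against 22.5 dpp, D30 against 36.5 dpp and the change from D4 to D30, and 0 in the other 6 comparisons. With fresh libraries only, 0 were called for 10.5 against 6.5 dpp, 1 for D4 against 6.5 dpp and 0 for D30 against D16. In fits of only the groups compared, 0, 0, 7, 1 and 3 were called for 10.5 against 6.5 dpp, D30 against D16, D4 against 10.5 dpp, D16 against 22.5 dpp and D30 against 36.5 dpp, and 6 for the change from D4 to D16. With library size only or without a filter, 0 were called for 10.5 against 6.5 dpp. For D30 against 36.5 dpp, 2 were called with RLE factors, 2 with DESeq2 and 3 with the replicate block. The cause of these changes was not tested.

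With 1 library left out, the number of genes called ran from 0 to 1 for 10.5 against 6.5 dpp, from 7 to 8 for 22.5 against 10.5 dpp, from 5 to 6 for 36.5 against 22.5 dpp, from 1 to 5 for D16 against D4, from 0 to 1 for D30 against D16, from 2 to 3 for D4 against 10.5 dpp, from 1 to 4 for D16 against 22.5 dpp, from 3 to 6 for D30 against 36.5 dpp, from 3 to 4 for the averaged difference, from 2 to 4 for its change from D4 to D16 and from 3 to 6 for that from D4 to D30, and it was 5 throughout for D4 against 6.5 dpp. The 8 genes highest at 6.5 or 10.5 dpp stayed 8 with CPM on the TMM effective library size and with FT replicate 1 kept, while 23 and 3 of the 70 stage means moved by over 1 SD. The block on the replicate number also took Rhox13 out of the calls for D16 against D4 (adjusted p = 0.0599). Of 64 same-numbered pairs of libraries, 16 had a correlation of deviations over 0.1, and of 123 pairs with other numbers 27 did. Of the 21 libraries, 9 correlated best with their own number. In groups of 2 libraries the deviations mirror each other, so these values cannot decide whether the numbers pair the samples.

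Among all genes, calls differed by over 1.5 times with the thresholds of the study in all 12 comparisons (4 instead of 220 for 10.5 against 6.5 dpp, 3537 instead of 11835 for 22.5 against 10.5 dpp), with FT replicate 1 kept (2 instead of 220, and 203 instead of 1851 for the change from D4 to D16), with fresh libraries only (6 instead of 220, and 977 instead of 4028 for D4 against 6.5 dpp), in fits of only the groups compared (0 instead of 345 for D30 against D16, and 6465 instead of 1559 for D4 against 10.5 dpp), with DESeq2 (643 instead of 220, and 719 instead of 345), without D16 replicate 1 (845 instead of 345, and 1847 instead of 4598 for D16 against D4) and without D16 replicate 2 (7 instead of 345, 1155 instead of 4967 for D16 against 22.5 dpp, and 535 instead of 1851). These are totals of separate fits, and other comparisons and libraries left out also passed 1.5 times. The share of calls that were higher moved by over 10 points with library size only, from 45.9% to 27.9% for 36.5 against 22.5 dpp, from 54.3% to 68.0% for D16 against 22.5 dpp and from 55.5% to 78.9% for the change from D4 to D30, and with RLE factors to 56.0% and 43.9% in the first and second of these. Neurog3, with 7 to 13 counts in libraries of 36.5 dpp, is the gene most limited by depth.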
